A study of Mus musculus with 4 samples.

Results

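The lysyl oxidase genes Lox, Loxl1, Loxl2 and Loxl3 are described here across the cell types of a major salivary gland, the submandibular gland of the mouse, 5 days after release of a duct ligation and in glands without surgery. The members were the matrix rows bearing these 4 symbols, among 31053 genes listed in every library. The family was chosen by the higher levels of Lox and Loxl1 in fibroblasts of deligated glands, known from an earlier description of the same libraries. For that reason the comparison of the groups within fibroblasts is given as values with their errors, and no test of it is read. Comparisons of cell types that hold Lox or Loxl1 of deligated fibroblasts are descriptions too. Other comparisons between cell types, and between the groups in other cell types, are given with their tests unless counts were too low.

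Lysyl oxidases are secreted, copper-dependent enzymes that oxidise lysine and hydroxylysine side chains of collagens and elastin. The aldehydes so formed condense into the covalent cross-links that make collagen fibrils and elastic fibres stiff and insoluble. Lox is secreted as a proenzyme and is activated by Bmp1-type proteinases. Loxl1 is known for its part in the upkeep of elastic fibres. Loxl2 and Loxl3 carry scavenger receptor cysteine-rich domains ahead of the catalytic domain, and Loxl2 is known to cross-link collagen IV of basement membranes. Duct ligation of a salivary gland is a model of atrophy with fibrosis, and release of the duct a model of its regression.

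All libraries came from female C57BL6/J mice, and all suspensions were enriched for stroma by removal of epithelial cells (EpCAM), red blood cells (Ter119) and dead cells with magnetic beads. The deligated group (2 libraries, mice of 14 weeks) had the ducts clipped shut for 14 days and then open again for 5 days. The homeostatic group (2 libraries, mice of 12 weeks) had no surgery, so that age differed along with the surgery. No library came from glands still ligated, so effects of the ligation and of its release cannot be told apart. Rose, fell and deligation effect below stand for the difference between these groups. The labels call the tissue submandibular, but the protocol lists sublingual glands too, at clipping and at harvest, and sublingual cells may therefore be among those counted here. The labels do not say whether the libraries of a group came from different animals, and p-values below therefore measure the spread between these libraries, which may be technical.

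Depth is given in UMIs (unique molecular identifiers), each standing for 1 captured RNA molecule. The deligated libraries totalled 35662241 and 53898793 UMIs over 4725 and 8713 cell barcodes, and the homeostatic libraries 53633980 and 52379402 UMIs over 12854 and 13266 cell barcodes. Cells were assigned to a class by 6 canonical markers, none of them a member of the family, and 92.6% and 88.6% of the deligated cells against 73.2% and 72.1% of the homeostatic cells entered a class. Pairs of libraries shared between 14 and 54 barcodes. Genes with more than 100 kb of intron gave 8.60% and 8.28% of fibroblast UMIs in deligated and 16.3% and 16.5% in homeostatic libraries. The 2 deligated libraries stood farther apart than the 2 homeostatic ones, with a chi-square per degree of freedom between replicates, over genes in fibroblasts, of 24.9 against 2.08. This measure grows with depth, and deligated fibroblasts were summed over 4657951 and 6320962 UMIs against 1927647 and 1774373. The deligated files name Cell Ranger 6.0.1 and the homeostatic files 7.0.0, and the effect of the version cannot be told apart from that of the group.

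The members are paralogs, and the stretches they share show how far their transcripts could be confused. The longest exact run shared by any pair of members was 32 bases, between Lox and Loxl1. Loxl1 and Loxl2 shared 28 bases, and Loxl2 and Loxl3 shared 26 bases, whereas Lox shared at most 14 bases with Loxl2 or with Loxl3. The printed runs are coding sequence, and in Loxl2 they overlap within exon 11. They are shown from the GENCODE M21 transcripts, with GRCm38 coordinates of the shared run, 5′ to 3′ on the transcript strand, with the shared run in capitals and flanking bases in lower case.
Loxl1, exon 4 of 7, chr9:58293626-58293653, minus strand: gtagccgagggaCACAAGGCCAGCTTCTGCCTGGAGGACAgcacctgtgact
Loxl2, exon 11 of 14, chr14:69689101-69689128, plus strand: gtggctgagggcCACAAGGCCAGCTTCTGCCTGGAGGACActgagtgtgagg
Loxl2, exon 11 of 14, chr14:69689080-69689105, plus strand: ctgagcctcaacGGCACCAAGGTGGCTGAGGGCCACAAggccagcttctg
Loxl3, exon 11 of 14, chr6:83050168-83050193, plus strand: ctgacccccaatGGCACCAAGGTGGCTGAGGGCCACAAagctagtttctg
In Loxl1 and Loxl2 the run of 28 bases lies 1445 and 3059 bases from the transcript end. In Loxl2 and Loxl3 the run of 26 bases lies 3082 and 2050 bases from it.

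The members lie on different chromosomes of GRCm38 (GENCODE M21). Lox (ENSMUSG00000024529) lies on chromosome 18, 52516067 to 52529867, minus strand, with 9.02 kb of intron. Loxl1 (ENSMUSG00000032334) lies on chromosome 9, 58287738 to 58313186, minus strand, with 22.2 kb of intron. Loxl2 (ENSMUSG00000034205) lies on chromosome 14, 69609068 to 69695834, plus strand, with 81.4 kb of intron, the longest introns of the 4 members. Loxl3 (ENSMUSG00000000693) lies on chromosome 6, 83034173 to 83052562, plus strand, with 13.8 kb of intron. Loxl2 overlaps Gm27177 and Loxl3 overlaps Htra2 on the opposite strand. The files do not state whether counting used strand, so reads of these partners cannot be told apart from reads of the member.

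In all 4 libraries most UMIs of each of the 4 members came from fibroblasts, the class gated by Pdgfra, Dcn, Lum, Dpt, Clec3b and Abca8a. Among all cells, the fibroblast share was 8.66% ± 0.79 in deligated and 2.58% ± 0.17 in homeostatic libraries (SD, n = 2 each). They held 91.8% ± 2.39 of the Lox UMIs of a deligated library and 59.8% ± 2.49 in homeostatic libraries. For Loxl1 the fibroblast share was 95.02% ± 0.66 and 95.6% ± 0.80, the same in both groups within their spread. For Loxl2 it was 75.7% ± 1.66 and 62.8% ± 2.30, and for Loxl3 74.6% ± 1.115 and 57.5% ± 7.07. Bead depletion and the share of cells that entered a class bear on such shares, and their part was not tested.

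The gate held 353 and 721 deligated and 286 and 268 homeostatic fibroblasts. Of these 1628 cells, 8 had only the minimum of 2 markers, and 99.8% fell in clusters that the same markers named fibroblast. The 6 markers together had 20566 and 24572 CPM (a gene's UMIs over all UMIs of the class in that library, on the usual CPM scale) in deligated and 21845 and 23052 in homeostatic fibroblasts, so the defining markers were present at like levels in the groups.

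**Figure D1:**
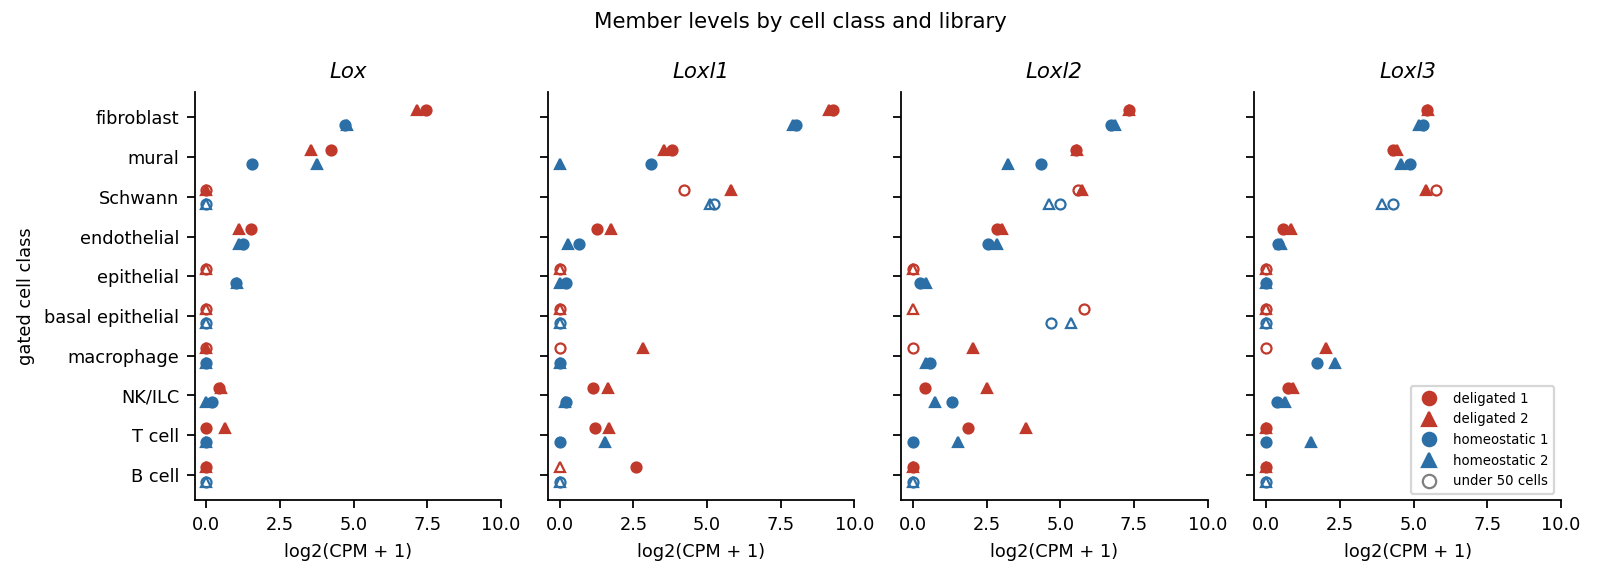
Levels of the 4 members, as log2(CPM + 1) of the summed UMIs, in 10 gated cell classes (rows) and 4 libraries (red, deligated; blue, homeostatic; circle, replicate 1; triangle, replicate 2; open symbols, fewer than 50 cells). Fibroblasts lie farthest to the right for Lox and Loxl1 in every library, and red and blue fibroblast symbols are farthest apart for Lox.

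Lox, which cross-links both collagen and elastin, had 818 and 887 UMIs in deligated and 48 and 47 UMIs in homeostatic fibroblasts. Its level was 176 and 140.3 CPM in deligated and 24.9 and 26.5 CPM in homeostatic fibroblasts. Both deligated libraries lay above both homeostatic libraries, and the group means of 158 ± 25.0 and 25.7 ± 1.122 CPM (SD, n = 2 each) differed 6.15-fold. The edgeR log2 fold change was 2.68 (SE 0.19, 95% interval 2.25 to 3.11), rank 32 from the top among 11447 genes.

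The share of fibroblasts with a Lox UMI was 67.4% (exact Clopper-Pearson 95% interval 62.3 to 72.3) and 52.3% (48.6 to 56.0) in deligated libraries. In homeostatic libraries it was 12.6% (8.97 to 17.0) and 14.6% (10.6 to 19.3). Median UMIs per fibroblast were 13081 and 9096 in deligated against 6730.5 and 6605 in homeostatic libraries. With every cell thinned to 1000 UMIs the shares were 11.3% and 10.5% against 1.75% and 3.38%, so the groups stayed apart at equal depth. In NK/ILC cells, which should lack the gene, the unthinned share was 0 to 0.24% in the 4 libraries at median depths of 5547.5 to 6335 UMIs.

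Lox UMIs were unevenly spread over deligated fibroblasts. In deligated replicate 1, 99 of the 353 fibroblasts had 3 or more Lox UMIs and held 631 of the 818, with 53 in the highest cell. In deligated replicate 2, 124 of 721 fibroblasts held 539 of the 887 UMIs, with 14 in the highest cell. The homeostatic libraries had 2 and 1 such cells.

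Loxl1 had 2875 and 3577 UMIs in deligated and 503 and 432 in homeostatic fibroblasts. Its level was 617 and 566 CPM in deligated and 261 and 243 CPM in homeostatic fibroblasts. The libraries of the groups did not overlap, and the means of 592 ± 36.3 and 252 ± 12.4 CPM (SD, n = 2 each) differed 2.35-fold, an edgeR log2 fold change of 1.29 (SE 0.13, 95% interval 0.99 to 1.59). At 1000 UMIs per cell, 43.1% and 37.4% of deligated and 23.1% and 20.3% of homeostatic fibroblasts had a Loxl1 UMI. Without thinning these shares were 95.5% and 89.5% against 64.7% and 68.3%, and in NK/ILC cells 0.77% and 1.27% against 0.10% and 0.10%.

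Loxl2 had 743 and 1006 UMIs in deligated and 199 and 203 in homeostatic fibroblasts. Its level was 159.5 and 159 CPM in deligated and 103 and 114 CPM in homeostatic fibroblasts, a smaller gap that still did not overlap. The edgeR log2 fold change was 0.61 (SE 0.13, 95% interval 0.31 to 0.91). With the trend of fold change over intron length removed it was 1.15, and with cells thinned to 1000 UMIs 0.45. Thinned shares of fibroblasts with a UMI were 14.2% and 12.6% against 11.2% and 11.3%, and unthinned shares 75.4% and 65.6% against 44.1% and 47.0%.

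Loxl3 had 202 and 276 UMIs in deligated and 75 and 63 in homeostatic fibroblasts. Its level was 43.4 and 43.7 CPM against 38.9 and 35.5 CPM, and the edgeR log2 fold change of 0.28 (SE 0.16) had a 95% interval of -0.08 to 0.64. With cells thinned to 1000 UMIs the fold change was 0.70. The thinned share of fibroblasts with a Loxl3 UMI was 5.10% and 4.82% against 3.15% and 3.01%, and the unthinned share 40.2% and 29.7% against 21.7% and 20.1%.

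**Figure D2:**
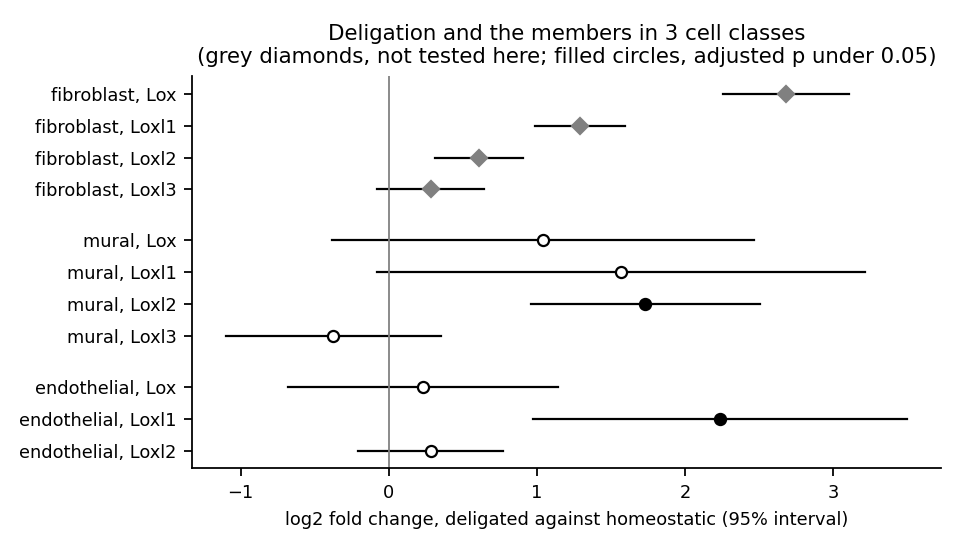
Log2 fold change of each member, deligated against homeostatic, in fibroblasts (grey diamonds, shown without a test), mural and endothelial cells (circles, filled where the edgeR adjusted p was under 0.05), with 95% intervals. In fibroblasts the values run from 2.68 for Lox to 0.28 for Loxl3, and outside fibroblasts Loxl2 in mural cells and Loxl1 in endothelial cells are filled. The filled Loxl1 mark is not read as a result, because Loxl1 passed the filter on low counts through the deligated libraries alone.

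The levels over all cells combine the level within a class with the number of cells of that class. Over all cells, Lox was at 28.0 and 20.6 CPM in deligated and 1.80 and 1.92 CPM in homeostatic libraries, a 13.1-fold difference of the means beside 6.15-fold within fibroblasts. Loxl1 differed 7.67-fold over all cells, Loxl2 3.94-fold and Loxl3 2.92-fold. Within fibroblasts the same ratios were 2.35, 1.46 and 1.17, and the share of fibroblasts among cells differed 3.36-fold. For Loxl1, Loxl2 and Loxl3 the ratio of the cell shares was larger than the ratio of the levels within fibroblasts, and for Lox it was smaller.

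**Figure D3:**
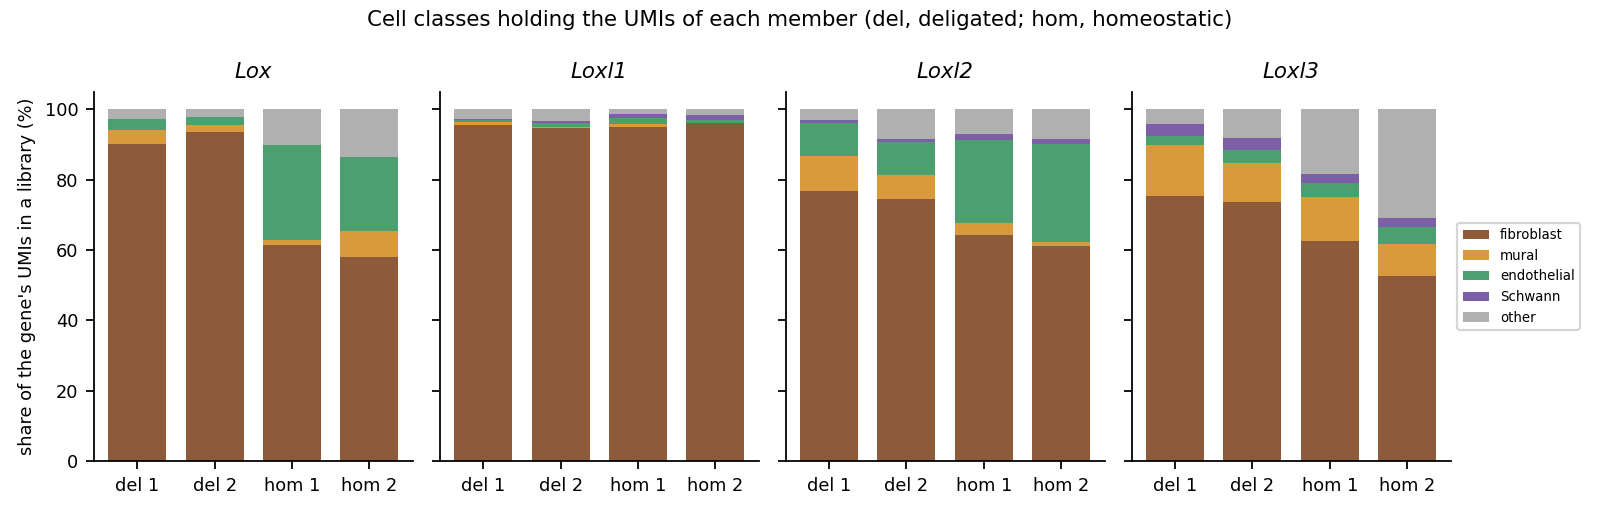
Share of each member's UMIs in a library that came from fibroblasts, mural, endothelial, Schwann and all other cells (including cells outside any class), as stacked bars for 2 deligated and 2 homeostatic libraries. Fibroblasts hold 94.6% to 96.2% of Loxl1 in the 4 libraries, whereas endothelial cells hold 26.9% and 20.99% of Lox in the homeostatic libraries and 2.97% and 2.11% in the deligated ones.

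Mural cells, the pericytes and smooth muscle cells around vessels, came next to fibroblasts for Lox and Loxl2 among the classes tested. Fibroblasts, mural and endothelial cells were compared in 1 edgeR model with the library as a block, in which 35.4% of 13073 genes differed between fibroblasts and mural cells of homeostatic libraries and 49.3% in deligated libraries. Homeostatic mural cells held 1 and 6 UMIs of Lox, 4 and 0 of Loxl1 and 10 and 4 of Loxl2. In homeostatic libraries Lox was higher in fibroblasts than in mural cells by a log2 difference of 1.86 (SE 0.49, edgeR adjusted p 0.00643). This difference lost its call without homeostatic replicate 1, at 1.01 (edgeR adjusted p 0.236). Loxl1 was at 261 and 243 CPM in homeostatic fibroblasts against 7.65 and 0 CPM in mural cells, and with so few mural UMIs the fitted log2 difference of 5.96 ran from 5.04 to 13.6 with 1 library left out. Loxl2 was higher in fibroblasts by 2.94 (SE 0.28, edgeR adjusted p 1.9e-07), between 2.38 and 3.70 with 1 library left out. For Loxl3 the log2 difference of 0.51 (SE 0.29, edgeR adjusted p 0.194) did not pass, and its 95% interval ran from -0.11 to 1.122.

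In deligated libraries Loxl2 and Loxl3 were higher in fibroblasts than in mural cells in the same edgeR model. The log2 differences were 1.87 for Loxl2 (edgeR adjusted p 8.9e-10) and 1.22 for Loxl3 (edgeR adjusted p 1.9e-05). Those of Lox (3.55) and Loxl1 (5.72) hold the deligated fibroblast levels by which the family was chosen. No test of these 2 is read. Against endothelial cells Loxl2 was higher in fibroblasts in both groups, beside 60.4% and 65.6% of all genes that differed in homeostatic and deligated libraries. Its log2 differences, homeostatic and then deligated, were 4.12 and 4.57. For Lox they were 4.14 and 6.73, and the deligated one was 8.25 for Loxl1. These values of Lox and Loxl1 are descriptions, since both genes were low in endothelial cells. The deligated ones also hold the fibroblast levels by which the family was chosen. In homeostatic endothelial cells Loxl1 had 9 and 3 UMIs, at 0.59 and 0.20 CPM beside 261 and 243 CPM in fibroblasts, and no test is given there. Loxl3 was too low in endothelial cells to be tested there and entered this model through its level in fibroblasts, so no test of it against endothelial cells is given.

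In mural cells Loxl2 was higher in deligated than in homeostatic libraries. It had 94 and 92 UMIs in deligated and 10 and 4 UMIs in homeostatic mural cells, and its level was 45.6 and 46.6 CPM in deligated and 19.1 and 8.25 CPM in homeostatic libraries. Both deligated libraries lay above both homeostatic ones, and the log2 fold change was 1.73 (SE 0.36, 95% interval 0.96 to 2.50) at an edgeR adjusted p of 0.00764. Of 9502 genes tested in mural cells, 7.81% passed in either direction, 1.50% as higher and 6.30% as lower, and Loxl2 was the 1 member of 4 that passed. The call was lost without homeostatic replicate 2 (1.29, edgeR adjusted p 0.0836) and with DESeq2 (1.75, adjusted p 0.0577). The 6 fibroblast markers summed to 43.6 and 119 CPM in deligated and 45.9 and 26.8 CPM in homeostatic mural cells. Deligated replicate 2 was highest in these markers and deligated replicate 1 lay between the homeostatic libraries, and their part in the Loxl2 result was not tested.

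The other members did not pass in mural cells. Lox had 37 and 21 UMIs in deligated and 1 and 6 in homeostatic mural cells, at 17.9 and 10.6 against 1.91 and 12.4 CPM, values that overlap. Loxl1 was at 13.1 and 10.6 against 7.65 and 0 CPM, from 27, 21, 4 and 0 UMIs. Loxl3 was at 18.9 and 20.8 CPM in deligated and 28.7 and 22.7 CPM in homeostatic mural cells, the 1 member with a negative log2 fold change there (-0.37, SE 0.33, edgeR adjusted p 0.594). The difference between the changes in fibroblasts and mural cells contains the fibroblast comparison by which the family was chosen, and is given as a description. Over all genes, 0.566% differed in that edgeR model. The differences of the log2 fold changes, fibroblast minus mural, with intervals not adjusted over genes, were 1.69 for Lox (95% interval 0.18 to 3.21), -0.24 for Loxl1 (-1.98 to 1.49), -1.07 for Loxl2 (-1.86 to -0.27) and 0.71 for Loxl3 (-0.06 to 1.48). With 1 library left out the value for Lox ran from -0.11 to 2.52 and that for Loxl1 from -7.90 to 0.66.

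Within the mural class, cells with a UMI of Myh11, Cnn1 or Myocd, genes of smooth muscle contraction, were set apart from the rest. All Lox UMIs of mural cells lay in the smooth muscle-type cells (37, 21, 1 and 6 UMIs in 236, 271, 76 and 66 cells), and the remaining 56, 107, 36 and 28 cells had 0. In the deligated libraries the smooth muscle-type level of 20.4 and 13.2 CPM was at least 1.72-fold and 1.68-fold higher than the floor of 3 counts per library in the remaining cells. In the homeostatic libraries that floor, 26.8 and 35.9 CPM, lay above the smooth muscle-type level, so no difference was detectable at this depth. Loxl2 was at 38.1, 40.8, 12.2 and 2.49 CPM in smooth muscle-type cells and 99.1, 70.5, 44.7 and 35.9 CPM in the others, lower in both deligated libraries and in homeostatic replicate 1. In homeostatic replicate 2 these values rest on 1 and 3 UMIs, and no order was detectable. Loxl3 was at 15.5, 17.0, 24.3 and 22.4 CPM against 43.6, 36.6, 44.7 and 23.9 CPM, lower in the same 3 libraries, whereas the last value rests on 2 UMIs and gives no order in homeostatic replicate 2. Median UMIs per cell were 7163, 5478, 5273 and 6055 in smooth muscle-type cells against 4279, 3444, 2859 and 2886 in the others, so that deeper cells were more likely to meet the criterion, and the part of depth in these differences was not tested.

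In endothelial cells, the most numerous class with 12628 cells, the tested members were at low levels. Lox was at 1.82 and 1.14 CPM in deligated and 1.38 and 1.16 CPM in homeostatic endothelial cells, groups that overlap (log2 fold change 0.23, SE 0.37, edgeR adjusted p 0.666). Loxl2 was at 6.21 and 7.06 against 4.79 and 6.28 CPM, again overlapping (0.28, SE 0.20, edgeR adjusted p 0.320), and with the intron trend removed its log2 fold change was 0.70 (edgeR adjusted p 0.0434). Loxl3 had 7, 14, 5 and 6 UMIs and was too low to be tested.

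Loxl1 was higher in deligated endothelial cells, where 34.1% of 13353 genes passed in either direction, 12.2% as higher and 21.9% as lower. It had 21 and 41 UMIs in deligated and 9 and 3 UMIs in homeostatic endothelial cells, at 1.42 and 2.34 against 0.59 and 0.20 CPM. It passed the filter on low counts through the deligated libraries alone. The log2 fold change was 2.23 (SE 0.52), and 2.24 without that filter, and no test of it is read. Without homeostatic replicate 1 the log2 fold change of Loxl1 was 3.15, and without homeostatic replicate 2 it was 1.69. The summed fibroblast markers moved with it, at 19.9 and 71.8 CPM in deligated and 8.21 and 7.16 CPM in homeostatic endothelial cells, and their part in this result was not tested. In NK/ILC cells Loxl1 was at 1.19 and 2.14 against 0.15 and 0.13 CPM, values of the same order, so the endothelial values are not read as expression by endothelial cells.

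The difference in deligation effect between fibroblasts and endothelial cells likewise contains the fibroblast comparison and is a description. Over all genes, 5.48% differed in that edgeR model. For Lox the difference of the log2 fold changes was 2.59 (SE 0.39). It was -0.81 for Loxl1 (95% interval -1.82 to 0.20) and 0.45 for Loxl2 (0.03 to 0.88).

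Schwann cells, the glia of peripheral nerves, held the members other than Lox. They numbered 28 and 62 in deligated and 48 and 42 in homeostatic libraries, too few for a test. Loxl1 was at 17.8 and 55.2 against 37.0 and 33.1 CPM, from 3, 16, 6 and 7 UMIs, and Loxl2 at 47.5 and 51.8 against 30.8 and 23.6 CPM, from 8, 15, 5 and 5 UMIs. Loxl3 was at 53.4 and 41.4 CPM in deligated Schwann cells, from 9 and 12 UMIs, beside 43.4 and 43.7 CPM in deligated fibroblasts, and at 18.5 and 14.2 CPM in homeostatic ones, from 3 and 3 UMIs. Lox had 0 UMIs in Schwann cells of every library, which at 3 counts per library allows levels of up to 17.8, 10.4, 18.5 and 14.2 CPM.

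The remaining classes had few UMIs of the family. Macrophages had no Lox UMI in 40, 117, 1134 and 1131 cells, which allows up to 0.485 and 0.555 CPM in the homeostatic libraries. They held 14 and 22 Loxl3 UMIs in the homeostatic libraries, 11.7% and 18.3% of the gene's UMIs there (95% intervals 6.53 to 18.8 and 11.9 to 26.4), at 2.27 and 4.07 CPM. Epithelial cells had 6 and 6 Lox UMIs in the homeostatic libraries, at 1.02 and 1.06 CPM, and 0 in the 16 and 42 deligated epithelial cells. Basal epithelial cells numbered 8, 5, 10 and 10 and held 4, 0, 1 and 3 Loxl2 UMIs, at 54.9, 0, 24.6 and 40.4 CPM. The 3 counts that a count of 0 allows stand for 40.4 to 159 CPM in so few cells, so their place in the order of classes was not detectable, and they held no UMI of the other 3 members. B cells held a single UMI of the family, of Loxl1. Loxl4, the family member outside the set, had 18, 9, 6 and 13 UMIs over all cells and was not tested in any class.

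By level, the order of the classes in deligated libraries was fibroblast, mural, endothelial and NK/ILC for Lox, with each library of one class above each library of the next. In homeostatic libraries the lower mural value of Lox, 1.91 CPM, rested on 1 UMI and lay near the endothelial values of 1.38 and 1.16 CPM. For Loxl1 fibroblasts lay highest in deligated libraries, Schwann and mural cells followed without a detectable order in replicate 1 (3 Schwann UMIs), and endothelial, NK/ILC and T cells overlapped below them. For Loxl2, Schwann cells (8 and 15 UMIs) and mural cells lay at 47.5 and 51.8 against 45.6 and 46.6 CPM in deligated libraries, a difference not detectable at this depth. For Loxl3, fibroblasts and Schwann cells overlapped in deligated libraries, and the 3 and 3 UMIs of homeostatic Schwann cells gave no detectable order against mural cells.

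Among fibroblasts, cells with a UMI of Pi16 or Dpp4, markers of adventitial-type fibroblasts around vessels, were compared with those with neither. They numbered 143 and 224 in deligated and 44 and 30 in homeostatic libraries. Loxl1 was higher in the adventitial-type cells in 4 of 4 libraries, at 711, 717, 496 and 389 CPM against 549, 488, 213 and 225 CPM, in the order deligated 1 and 2, homeostatic 1 and 2. Lox was higher there in both deligated libraries (207 and 183 against 153 and 118 CPM). In homeostatic libraries it was at 6.16 and 29.5 against 28.7 and 26.1 CPM, with 2 and 6 UMIs in the adventitial-type cells, so no order was detectable. Loxl2 was lower in the adventitial-type cells of both deligated libraries (131 and 149 against 180 and 164 CPM). In homeostatic libraries it was at 133 and 108 against 97.3 and 115 CPM, with 43 and 22 UMIs in the adventitial-type cells and no common order. Loxl3 ranged from 40.1 to 44.5 CPM in adventitial-type cells and from 34.4 to 45.0 CPM in the others. These values are descriptions, since all subclasses share the cells of the same libraries.

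**Figure D4:**
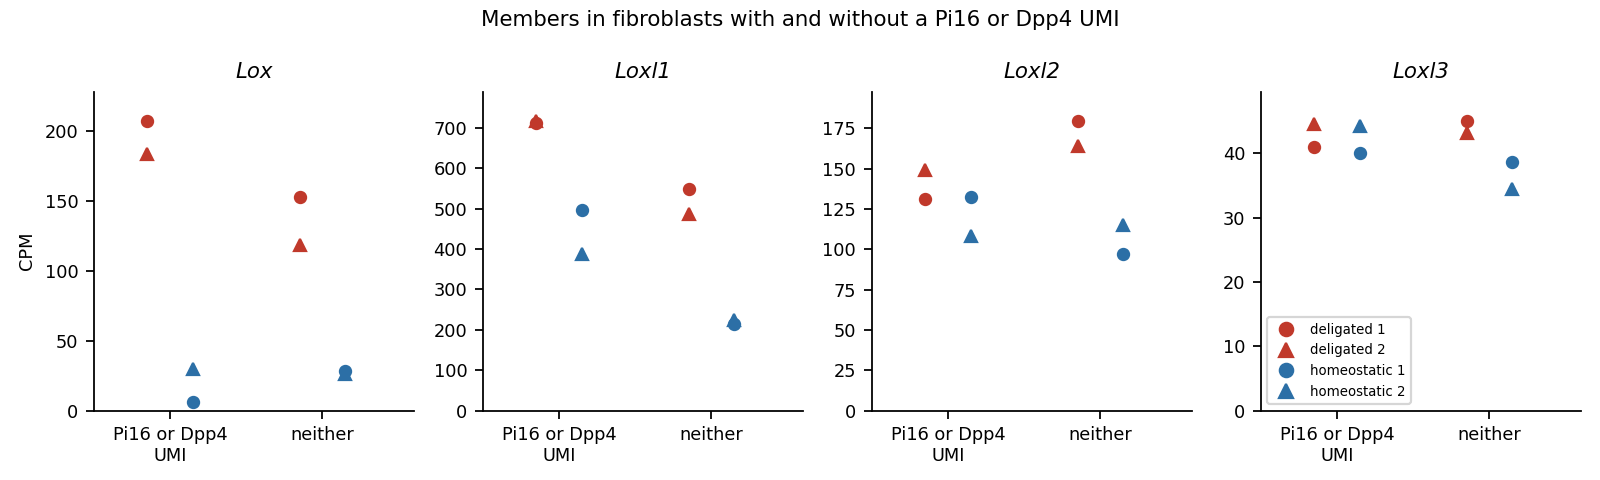
Level of each member (CPM) in fibroblasts with and without a Pi16 or Dpp4 UMI, per library (red, deligated; blue, homeostatic; circle, replicate 1; triangle, replicate 2). Deligated symbols lie above homeostatic ones for Lox and Loxl1 in both kinds of fibroblast, whereas the groups overlap for Loxl2 and Loxl3 among adventitial-type cells.

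The higher levels of Lox and Loxl1 were thus present on both sides of this division. Within adventitial-type cells Lox was at 207 and 183 CPM in deligated against 6.16 and 29.5 CPM in homeostatic libraries, and within the other cells at 153 and 118 against 28.7 and 26.1 CPM. For Loxl2 the groups overlapped in adventitial-type cells and did not overlap in the others.

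At 1000 UMIs per cell, 39.7% and 47.5% of deligated and 64.7% and 67.7% of homeostatic fibroblasts showed no member of the family. Cells with both a Lox and a Loxl1 UMI numbered 19 and 32 in the deligated libraries, where the product of the separate shares gives 17.2 and 27.7 cells. Lox with Loxl2 gave 5 and 10 cells against 5.67 and 9.34. Loxl1 with Loxl2 gave 16 and 35 cells against 21.5 and 33.3. Lox with Loxl3 gave 3 and 4 cells against 2.04 and 3.57, Loxl1 with Loxl3 5 and 13 against 7.75 and 12.7, and Loxl2 with Loxl3 3 and 3 against 2.55 and 4.29. In the homeostatic libraries a pair was seen in 0 to 7 cells. Lox with Loxl2 gave 3 and 1 cells there against 0.56 and 1.02, Lox with Loxl3 0 and 2 against 0.16 and 0.27, and Loxl1 with Loxl2 6 and 7 against 7.38 and 6.09. No test of these counts against the product was run.

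Across the 27 sums of a class in a library with at least 50 cells, the genes whose log2(CPM + 1) was most like that of a member were named by Pearson's r among 13337 genes. The sums share libraries and cell types, so these values only describe. For Lox they were Gata6 (0.95), Prelp (0.95), Tslp (0.95), Srpx2 (0.94) and Chrd (0.94), and for Loxl1 Dpep1 (0.96), Fibin (0.95), Mmp2 (0.95), Fbn2 (0.95) and Gpr153 (0.95). For Loxl2 they were Pcolce (0.96), Mxra8 (0.96), Bgn (0.96), C1ra (0.95) and Adamts5 (0.95), and for Loxl3 Dennd2a (0.97), Efemp2 (0.96), Fzd2 (0.96) and Epb41l3 (0.96). Pairs of members had r between 0.75 (Lox and Loxl3) and 0.88 (Loxl1 and Loxl2).

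Among the substrates of the enzymes, genes of fibrillar collagens and elastin were mostly higher in deligated fibroblasts. The gene lists were chosen with earlier results of this comparison known, so the counts, fold changes and p-values of the lists in fibroblasts describe these libraries and are not independent evidence of a direction. Of 8 fibrillar collagen and elastin genes, 6 rose and none fell (edgeR adjusted p under 0.05), with a median log2 fold change of 0.97. Of all 11447 genes tested in fibroblasts, 25.6% passed, 8.08% as higher and 17.5% as lower, with a median of 0.01, and the counts of the lists below stand beside these shares. With the intron trend removed 8 of the 8 genes were higher, with a median of 1.35. Col1a1, a chain of collagen I, was at 5035 and 3834 CPM in deligated and 1600 and 1592 CPM in homeostatic fibroblasts (log2 fold change 1.54, SE 0.17, edgeR adjusted p 0.00017). Col3a1, the chain of collagen III, rose by 1.40 (SE 0.18, edgeR adjusted p 0.000406) and Col1a2 by 1.14 (SE 0.16, edgeR adjusted p 0.000762). In each of these genes both deligated libraries lay above both homeostatic ones.

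Of the 6 chains of collagen IV, the network collagen of basement membranes, 1 rose and 3 fell, with a median log2 fold change of -0.45. Col4a2 was at 1041 and 872 against 592 and 659 CPM (0.67, SE 0.15, edgeR adjusted p 0.00955). Col4a3 was at 28.6 and 37.5 against 90.8 and 86.8 CPM (-1.36, SE 0.16, edgeR adjusted p 0.000272) and Col4a4 at 39.3 and 44.1 against 77.3 and 68.8 CPM (-0.75, SE 0.15, edgeR adjusted p 0.00516). All of these genes have more than 100 kb of intron, and with the intron trend removed the list had 3 higher and 0 lower, with a median of 0.66. The direction of this list therefore turned with that correction.

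Of 13 genes listed under proenzyme cleavage and matrix scaffolds, 6 rose and 2 fell, with a median of 0.37. With the intron trend removed 5 were higher and 2 lower, with a median of 0.45. Postn, the matricellular protein periostin, was at 375 and 152 CPM in deligated and 42.5 and 23.7 CPM in homeostatic fibroblasts (log2 fold change 3.05, SE 0.44, edgeR adjusted p 0.000817). Thbs2, thrombospondin 2, rose from 74.2 and 72.7 to 165 and 172 CPM (1.26, SE 0.13, edgeR adjusted p 0.000124). Tll1, a proteinase of the Bmp1 type with 184 kb of intron, fell from 30 and 26 UMIs to 3 and 13 UMIs (-3.32, SE 0.45). It passed the filter on low counts through the homeostatic libraries alone, so no test of it is read.

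Of 14 tested genes of lysyl and prolyl hydroxylation and collagen folding, 7 rose and 1 fell, with a median of 0.43, and with the intron trend removed 5 were higher and 1 lower, with a median of 0.28. Crtap, part of the prolyl 3-hydroxylase complex, was at 158 and 164 against 88.2 and 91.9 CPM (0.90, SE 0.13, edgeR adjusted p 0.000808). Fkbp10, a collagen chaperone, was at 85.2 and 77.0 against 44.6 and 47.3 CPM (0.88, SE 0.16, edgeR adjusted p 0.0028). P3h2, a prolyl 3-hydroxylase with 143 kb of intron, fell from 35.8 and 42.8 to 10.1 and 13.4 CPM (-1.67, SE 0.21, edgeR adjusted p 0.000399).

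Copper supply to the secretory pathway showed no common direction. Of 5 tested genes 1 rose and 1 fell, with a median of -0.01, beside 8.08% and 17.5% of all genes. Atox1, the copper chaperone that loads Atp7a, was at 184 and 189.8 against 151 and 137 CPM (0.43, SE 0.13, edgeR adjusted p 0.0347). Atp7a, the pump that supplies copper to the enzymes in the Golgi, was at 18.7 and 21.8 against 30.1 and 36.6 CPM (-0.66, SE 0.19, edgeR adjusted p 0.0337), and Ccs, the copper chaperone of superoxide dismutase, had a log2 fold change of 0.24 with an edgeR adjusted p of 0.285. With the intron trend removed neither Atox1 nor Atp7a passed.

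Of 12 genes of TGF-beta and hypoxia signalling, inputs that are known to induce lysyl oxidases, 2 rose and 4 fell, with a median of 0.08, beside 8.08% and 17.5% of all genes. Tgfb3, a TGF-beta ligand, was at 59.0 and 39.2 CPM in deligated and 10.9 and 10.1 CPM in homeostatic fibroblasts (2.27, SE 0.29, edgeR adjusted p 0.000399). Smad3, which carries the TGF-beta signal to the nucleus and has 106 kb of intron, was at 61.6 and 85.0 against 248 and 265 CPM (-1.75, SE 0.16, edgeR adjusted p 5.3e-05). Arnt, the partner of the hypoxia-inducible factors, was at 67.6 and 62.3 against 139.5 and 123 CPM (-0.96, SE 0.14, edgeR adjusted p 0.000969). With the intron trend removed this list had 4 higher and 2 lower, with a median of 0.41.

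**Figure D5:**
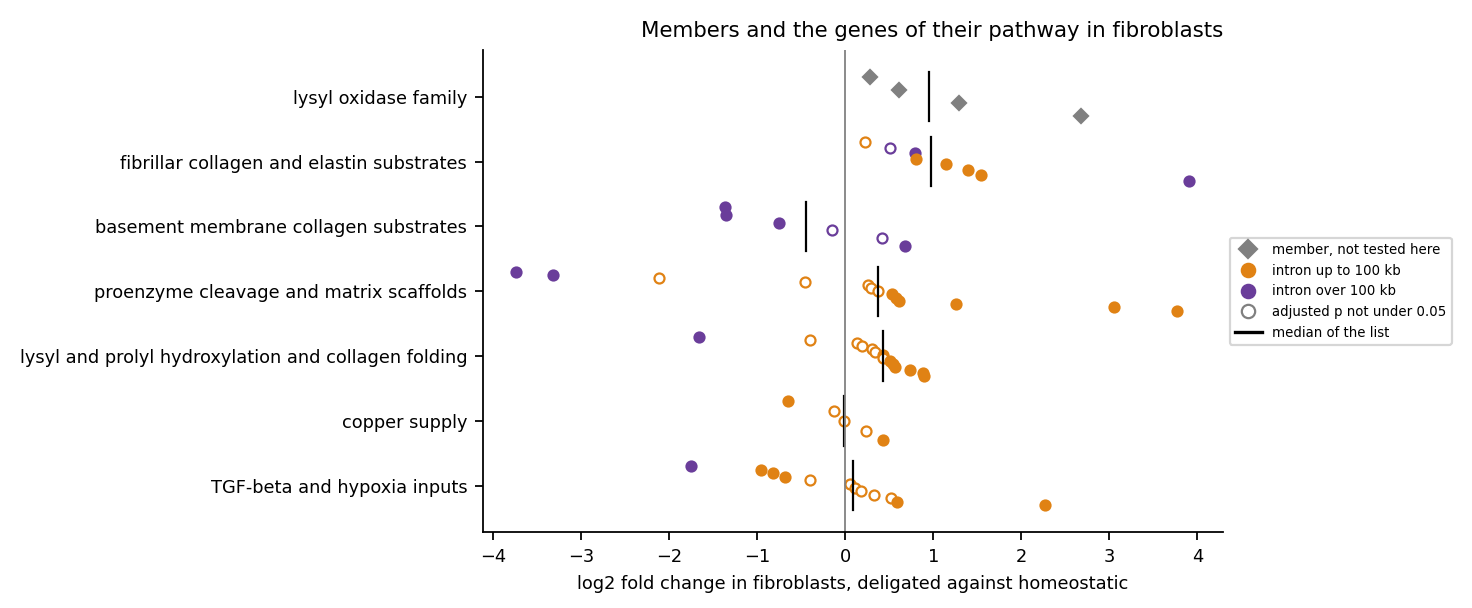
Log2 fold change in fibroblasts, deligated against homeostatic, of the members (grey diamonds, shown without a test) and of the genes of 6 pathway lists (circles, filled where the edgeR adjusted p was under 0.05; orange, intron up to 100 kb; purple, more), with list medians as bars. The fibrillar collagen and elastin list lies to the right of 0, with a median of 0.97, and the 6 filled points farthest to the left are all purple.

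The same lists were counted outside fibroblasts. In mural cells 4 of 7 tested fibrillar collagen and elastin genes rose and none fell, with a median log2 fold change of 0.76, where 1.50% of all genes passed as higher and 6.30% as lower. In endothelial cells 4 of 7 passed as higher (Col1a1, Col1a2, Col3a1 and Col5a1) and 1 as lower (Eln, which encodes elastin). There 12.2% of all genes passed as higher and 21.9% as lower. Col1a1 and Col5a1 passed the filter on low counts through the deligated libraries alone, so no test of them is read. Col5a1 was at 1.08 and 2.28 against 0.33 and 0.55 CPM. Col1a1 was at 4.39 and 11.6 against 0.53 and 0.48 CPM in endothelial cells, the homeostatic values from 8 and 7 UMIs, and at 6.29 and 13.2 against 0.45 and 0.40 CPM in NK/ILC cells, which should lack it. Col3a1 was at 7.90 and 22.6 against 1.18 and 0.96 CPM in endothelial cells and at 9.19 and 21.7 against 0.30 and 0.94 CPM in NK/ILC cells. Since levels in the 2 classes were of the same order, these collagen counts are not read as expression by endothelial cells. The summed fibroblast markers were higher in both deligated libraries of endothelial cells and in deligated replicate 2 of mural cells, as given above, and their part in these counts was not tested. Of the genes of cleavage and scaffolds, 3 of 9 passed as higher and 0 as lower in mural cells, and 3 of 10 as higher and 1 as lower in endothelial cells. Of 14 hydroxylation and folding genes, 0 passed as higher and 1 as lower in mural cells. In endothelial cells 8 of the 14 passed as higher and 2 as lower, with a median log2 fold change of 0.36, and with the intron trend removed 5 were higher and 1 lower, with a median of 0.27.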

How the data were processed

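Single-cell libraries were made on the 10x Genomics platform. The authors deposited raw UMI counts per gene and barcode, per the file headers made with Cell Ranger 6.0.1 (deligated) or 7.0.0 (homeostatic). The submitters' processing notes name Cell Ranger 6.0.1, Seurat and mm10. Intron and strand settings are not given in the sources used here. Of the gene identifiers, 99.6% matched GENCODE M21.

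Cells were kept with at least 300 genes and at most 10% mitochondrial UMIs, and the highest-scoring simulated-neighbour doublets were removed at 0.8% per 1000 cells. A cell joined a class when at least 2 of the 6 markers of that class had a UMI and every other class had at least 2 fewer. UMIs were summed per class and library, and classes with at least 50 cells in every library were tested with edgeR 4.0.16 (quasi-likelihood, TMM, filterByExpr, Benjamini-Hochberg over all genes, threshold 0.05), with the library as the replicate. In fibroblasts simulated with the library sizes and mean levels of these counts (11293 genes), 75% of genes changed by 1 on the log2 scale were recovered. Of genes changed by 2, 96% were recovered. The simulated spread was a fixed setting, equal in both groups and not estimated from these libraries. The deligated libraries stood farther apart than the homeostatic ones, so recovery in the real data may differ. Alternatives used DESeq2 1.42.0, RLE scaling, other filters and gates, Leiden clusters (scanpy 1.11.5), removal of an intron-length trend, thinning to 1000 UMIs and leaving out each library. Intervals on shares cover counting error only.

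The members and gene lists were chosen with earlier results of these data known. The genes named are the members, Loxl4, the 3 genes with the smallest p in each list, and the 5 genes most like each member, of which 1 is not reported here.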

Additional observations from a re-analysis of the deposited data

Results flagged for a closer look

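The difference in the deligation effect of Lox between fibroblasts and endothelial cells is listed because its edgeR test passed 0.05, but that pass is not read as a result. The difference of 2.59 on the log2 scale (SE 0.39) holds the fibroblast fold change by which the family was chosen (2.68), less an endothelial fold change of 0.23 that did not pass. The levels were 176 and 140.3 against 24.9 and 26.5 CPM in fibroblasts and 1.82 and 1.14 against 1.38 and 1.16 CPM in endothelial cells.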

How the results depend on the processing

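Of 155 log2 fold changes of the members between groups recomputed under the alternatives, 143 kept their direction and their side of the threshold, as did 141 of 144 differences between classes, although those of Loxl3 against endothelial cells, where it was too low to be tested, say nothing of stability. The cause of each change below was not tested. In fibroblasts, Loxl2 (0.61) was 0.45 with cells thinned to 1000 UMIs, and ran from 0.52 to 0.68 with 1 library left out. With 1 library left out, the homeostatic difference of Lox between fibroblasts and mural cells (1.86) ran from 1.01 to 3.64. Results that had not passed could turn direction with 1 library left out, namely Lox in endothelial cells (0.23, from -0.17 to 0.60), Loxl2 in NK/ILC cells (1.53, from -1.46 to 2.21, and called without deligated replicate 1), and the difference in deligation effect between fibroblasts and mural cells for Lox (1.69, from -0.11 to 2.52) and Loxl1 (-0.24, from -7.90 to 0.66). Genes called in fibroblasts (2933) numbered 1911 with DESeq2, 1938 with the intron trend removed, 1045 with thinned cells and 1250 to 3904 with 1 library left out. Of the pathway list genes, 23 were higher (10 to 29 with 1 library left out) and 11 lower (6 to 13, and 5 with the intron trend removed). A group with 1 library left was assumed to vary like the other group. Between replicates in fibroblasts, the chi-square per degree of freedom was 24.9 in deligated and 2.08 in homeostatic libraries, so a fit without a deligated library takes its spread from the homeostatic pair, which stood closer together.

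The replicate numbers did not pair the libraries (r = 0.04 of the deviations in fibroblasts, 2 pairs). With the replicate block the log2 fold changes in fibroblasts were 2.67 for Lox and 0.61 for Loxl2. Low UMI numbers limit Lox and Loxl1 outside fibroblasts, and Loxl3 in endothelial cells.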

Other observations

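Loxl2 UMIs of lymphocytes in the deligated libraries lay in few cells. NK/ILC cells of deligated replicate 2 had 60 Loxl2 UMIs in 24 of 2044 cells, and 6 of those cells held 42 of them, with 17 in the highest cell. T cells of the same library had 24 Loxl2 UMIs in 6 of 377 cells, and 2 of those cells held 20. In deligated replicate 1 all 6 Loxl2 UMIs of T cells lay in 1 of 435 cells, and homeostatic T cells had 0 and 1 Loxl2 UMIs. In deligated replicate 2 the cells with 3 or more Loxl2 UMIs had a median of 0 (NK/ILC) and 0.5 (T cells) UMIs over the 6 fibroblast markers. NK/ILC cells of deligated replicate 1 had 2 Loxl2 UMIs in 907 cells, and those of the homeostatic libraries had 10 and 5. In NK/ILC cells Loxl2 was the 1 member tested, and its log2 fold change was 1.53 with an edgeR adjusted p of 0.195.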
